A study of Homo sapiens with 8 samples.

Results

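The measurement described here is baseline translation efficiency in T3M4 cells, an established human pancreatic cancer line, carrying a non-targeting control guide RNA (sgControl). The members are all genes with at least 1 count in both assays of the control cells: 13188 of the 14668 genes in the table. Ribosome footprints (sgControl_Ribo, 2 libraries) were compared with mRNA (sgControl_RNA, 2 libraries), so 4 of the 8 libraries of the series were used. Both groups share the same guide, the same 18 h without serum and the same 2 h in 10% FBS before lysis, and differ in how RNA was selected and made into libraries. The cells with a guide against METTL13 were not used. The labels do not state where replicates split, in culture or later, and the p-values below cover no more than the spread of these libraries, which may be technical. The labels name no clone, and cells with a non-targeting guide are not an untouched parental line.

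Ribosome profiling sequences the short stretches of mRNA that a ribosome shields from nuclease, and RNA-seq measures the mRNA itself. Their ratio is a standard estimate of how many ribosomes an mRNA carries for its abundance. It rises with the initiation rate and also with slow elongation, so it is a measure of occupancy, not of protein output. Here, per the labels, footprints were pulled down on beads carrying a puromycin analog, which binds ribosomes that can still react with it, and mRNA was selected by its poly(A) tail. The ratio is given below as log2 of footprint CPM over mRNA CPM (counts scaled to library size with TMM factors), called efficiency. A value of 0 means that a gene took equal shares of both kinds of library. Because shares are compared, no absolute rate can be read from it. Whether both assays were aligned and counted against 1 reference, region and overlap rule is not given in the sources used here. A difference between them would enter every ratio below.

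Of the 13188 members, 11777 passed the filter on low counts and were tested, and 1411 were not. A further 769 genes had mRNA counts only, 420 had footprint counts only and 291 had neither. Total counts were 36436106 and 20860953 in the mRNA libraries and 8181707 and 6063885 in the footprint libraries, replicates 1 and 2 in each case. In the shallower footprint library 3 counts, the limit that a count of 0 allows, correspond to 0.562 CPM, against 0.131 CPM in the shallower mRNA library. These limits cover counting error only. Epithelial and ductal markers were abundant: the 9 listed keratins, adhesion and mucin genes summed to 7670 and 8659 CPM of mRNA. The 3 leukocyte markers in the table summed to at most 0.664 CPM in any library, the 4 endothelial markers to at most 1.46 CPM, and the acinar and islet marker in the table was at 0. The 5 fibroblast markers in the table summed to 24.9 and 29.9 CPM of mRNA and 27.6 and 24.3 CPM of footprints, most of it from COL1A1.

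Efficiency ranged widely. The median gene stood at −0.12, the quartiles at −1.51 and 1.10, and the lowest and highest 5% of genes lay below −3.99 and above 2.89. By edgeR's quasi-likelihood F test with Benjamini-Hochberg adjustment, 8968 genes (76.1% of those tested) differed at an adjusted p below 0.05. Of these, 4199 genes (35.7% of those tested) were higher in footprints and 4769 (40.5%) were lower. Counting only ratios of at least 1 on the log2 scale, 3129 genes (26.6%) were higher and 3807 (32.3%) were lower. In 10392 genes (88.2%) the libraries of both assays did not overlap. These shares are the background for every list below. The zero point depends on the scaling: with library size alone all ratios moved by −0.29, with upper-quartile factors by −0.17 and with DESeq2's size factors by 0.08. The filter also lets in genes seen well in a single assay. The 151 tested genes with under 10 counts in both mRNA libraries were all called higher, and of the 1197 with under 10 counts in both footprint libraries 945 were called lower. For genes that passed the filter through a single assay, the ratio is no support for a direction. Counts over the 9846 genes with at least 10 counts in each library, called well-counted genes, are therefore given beside several lists, a split made after seeing the data. Of these, 3923 were higher and 3502 lower, with a median of 0.10. The direction of that balance depends on the scaling: a refit of the same genes with its own factors gave 3539 higher and 3949 lower.

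**Figure D1:**
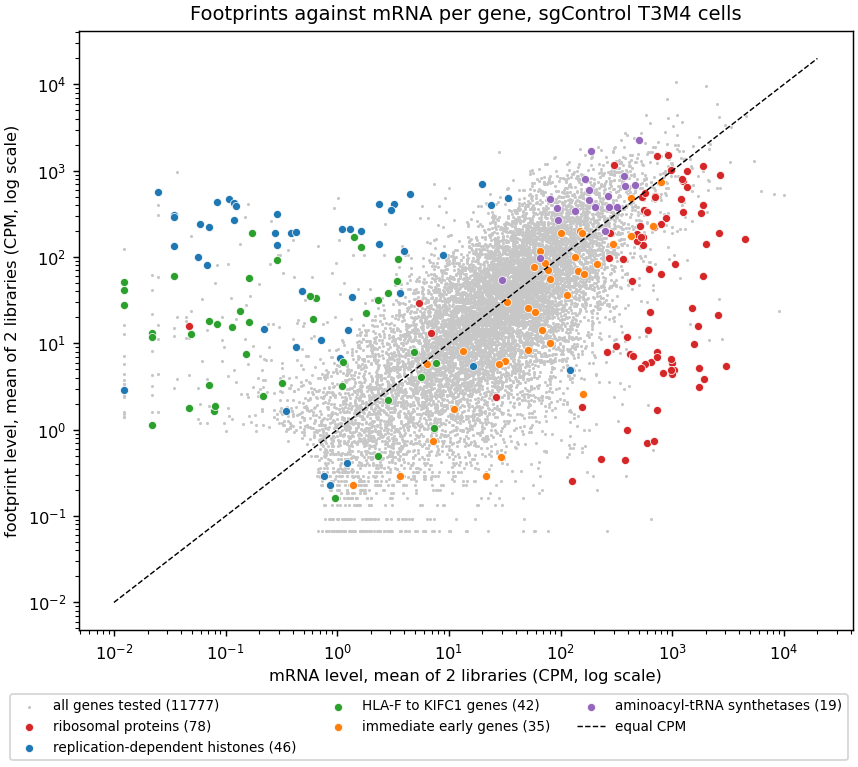
Mean footprint level against mean mRNA level of each gene tested, both in CPM on log scales, with the dashed line at equal CPM and 5 gene groups in colour. Most ribosomal protein genes lie far below the line, while most replication-dependent histones and genes between HLA-F and KIFC1 lie far above it, at mRNA levels down to under 0.1 CPM.

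The spread between genes was larger than the spread between replicates. Across the 9846 well-counted genes, the difference between the ratio of the replicate 1 libraries and that of the replicate 2 libraries had an SD of 0.448, while the ratio itself had an SD over genes of 1.75 and 1.87. The sign was the same in both for 9112 of the 9846 genes. Replicate differences were of like size in mRNA (SD 0.375) and footprints (SD 0.323). Some genes differed far more between the mRNA libraries. RPL7, a large-subunit ribosomal protein, read 1453 and 514 CPM in mRNA against 7.04 and 6.18 CPM in footprints. TMA7, a small translation-associated protein, read 156 and 59.1 CPM in mRNA against 2.13 and 2.25 CPM. Both stayed far lower in footprints than in either mRNA library.

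**Figure D2:**
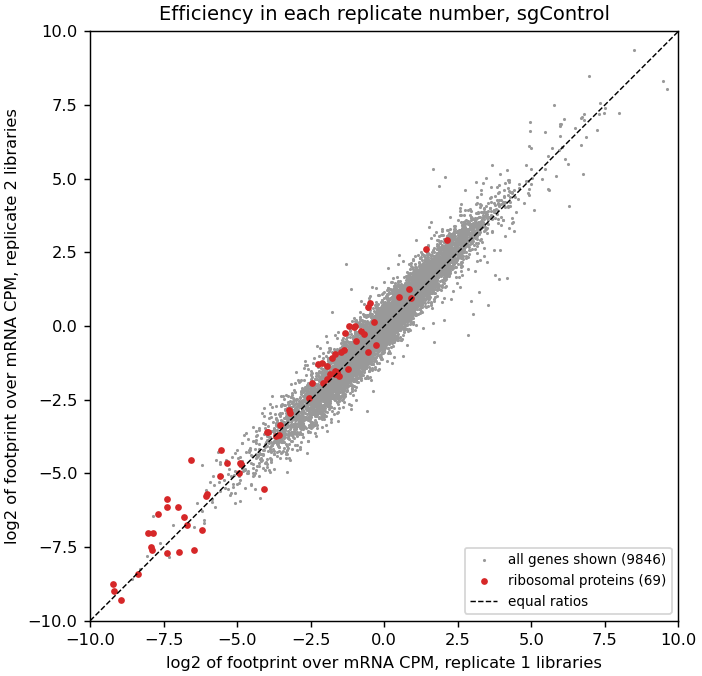
Efficiency from the replicate 1 libraries against efficiency from the replicate 2 libraries, on log2 scales, for the 9846 genes with at least 10 counts in each library, with 69 ribosomal proteins in red and the dashed line at equal ratios. The genes follow the line (Pearson r = 0.971 across genes, a description), and the ribosomal proteins run from about −9 to above 2.

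The genes with the most counts differed between the assays. In mRNA these were ACTB and ACTG1, the cytoplasmic actins, EEF1A1, the elongation factor that brings aminoacyl-tRNA to the ribosome, GAPDH of glycolysis, and SLC7A5, a transporter of large neutral amino acids. All 5 were lower in footprints. ACTB read 8529 and 11353 CPM in mRNA and 540 and 496 CPM in footprints, an efficiency of −4.26 (SE 0.227). SLC7A5 read 5334 and 7186 CPM in mRNA and 513 and 648 CPM in footprints, and its efficiency was −3.43 (SE 0.226). In footprints the leading genes were NCL, which encodes the nucleolar protein nucleolin, MYH9, the heavy chain of non-muscle myosin, HNRNPA2B1, an RNA-binding protein of splicing and transport, and the HSP90 chaperones HSP90AB1 and HSP90AA1. All 5 were higher in footprints. NCL read 1112 and 1033 CPM in mRNA and 9812 and 11278 CPM in footprints, an efficiency of 3.30 (SE 0.208).

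Ribosomal protein mRNAs had the lowest medians of the 27 gene lists. These mRNAs begin with a run of pyrimidines after a C, the 5′ terminal oligopyrimidine (TOP) motif, through which mTOR and LARP1 set their translation when serum or nutrients change. Of 78 ribosomal protein genes tested, 69 were lower in footprints, 6 were higher and 3 were neither, with a median of −3.67. By subunit, 42 of 47 large-subunit and 27 of 31 small-subunit genes were lower. Among well-counted genes, 39 of 43 and 22 of 26 were lower. Together they took 9.15% and 7.2% of the mRNA counts but 1.6% and 1.64% of the footprint counts. RPS18 was counted in both assays and did not pass the filter.

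Transcription start windows of 7 genes are shown so that the TOP motif can be set beside the ratios. Each runs from 10 bases before the annotated start to the 20th base from it (RefSeq, GRCh38.p14), and the capitals mark the unbroken run of C and T that begins at the start. RPL11 has no such run at its annotated start.
RPSA, chr3:39406710-39406739, plus strand: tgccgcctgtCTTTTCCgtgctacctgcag
RPL3, chr22:39319604-39319633, minus strand: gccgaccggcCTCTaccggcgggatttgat
RPS6, chr9:19380217-19380246, minus strand: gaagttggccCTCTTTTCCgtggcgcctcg
RPL11, chr1:23691769-23691798, plus strand: cctggcccataaggccctcggccggaagct
RPS9, chr19:54200848-54200877, plus strand: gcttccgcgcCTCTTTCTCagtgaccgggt
EEF1A1, chr6:73521013-73521042, minus strand: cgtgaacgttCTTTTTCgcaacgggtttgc
EEF2, chr19:3985444-3985473, minus strand: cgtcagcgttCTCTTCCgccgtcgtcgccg

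Ribosomal protein genes differed widely. RPSA, the small-subunit protein also known as the laminin receptor, read 2044 and 1840 CPM in mRNA and 3.45 and 4.31 CPM in footprints (26 and 23 counts). Its efficiency was −8.98 (SE 0.287, adjusted p = 8.01e-16). RPS6, the small-subunit protein phosphorylated by S6 kinase, read 2866 and 2527 CPM in mRNA and 932 and 852 CPM in footprints, an efficiency of −1.60 (SE 0.195). RPL3, of the large subunit near the peptidyl transferase centre, has a run of 4, shorter than the TOP start counted below. It stood between them: 1812 and 1943 CPM in mRNA, 59.0 and 61.8 CPM in footprints, and an efficiency of −4.96 (SE 0.224). RPL5, which carries 5S rRNA into the large subunit, read 818 and 589 CPM in mRNA and 505 and 493 CPM in footprints. It was lower by only −0.49 (SE 0.202, adjusted p = 0.0315), and that call was lost under 5 of the alternatives, which gave adjusted p from 0.066 to 0.203.

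The 6 ribosomal protein genes higher in footprints were RPL11, RPLP2, FAU, RPS9, RPS10 and RPL36A, a set named here after its values were seen. RPL11, which binds MDM2 beside RPL5 when ribosome assembly fails, read 840 and 617 CPM in mRNA and 1505 and 1463 CPM in footprints, an efficiency of 1.03 (SE 0.201). RPS9 read only 7.19 and 3.72 CPM in mRNA and 31.6 and 27.9 CPM in footprints, at 2.42 (SE 0.269). RPL36A had 2 and 1 mRNA counts in all against 113 and 90 footprints, a ratio of 332-fold with an exact 95% interval from 112 to 1620 for counting error only. It passed the filter through footprints alone, so its ratio and call are no support for a direction. RPL36A and RPS10 also lie in annotated readthrough loci. RPS9 had 291 and 85 mRNA counts and RPS10 had 296 and 152, so these ratios rest on few mRNA counts for the depth of the libraries.

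Ribosomal protein ratios moved with the number of pseudogenes. Every one of the 78 genes has numbered pseudogenes in the RefSeq table (symbols of the form RPL3P1), from 4 to 137 of them. The median was −1.44 for 22 genes with 4 to 9 pseudogenes, −2.0 for 19 genes with 10 to 19 and −6.40 for 37 genes with 20 or more. RPSA has 74, RPS6 has 26, RPL3 has 13 and RPL11 has 5. Across the 78 genes Spearman's rho of the number with efficiency was −0.483, a description across genes that share both libraries. How reads that match several places were counted is not given in the sources used here, and the part of pseudogenes in these ratios was not tested. Over all genes tested the median was −0.08 for 9836 genes with no numbered pseudogene, −0.16 for 956 with 1, −0.17 for 655 with 2 to 4, −0.86 for 192 with 5 to 9 and −2.23 for 138 with 10 or more, of which 107 were lower. Ribosomal proteins made up 56 of those 138 and 51 of the 107. Without them, a split made after seeing the data, the median was −0.18 for 653 genes with 2 to 4, −0.73 for 172 with 5 to 9 and −1.66 for 82 with 10 or more, of which 56 were lower.

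**Figure D3:**
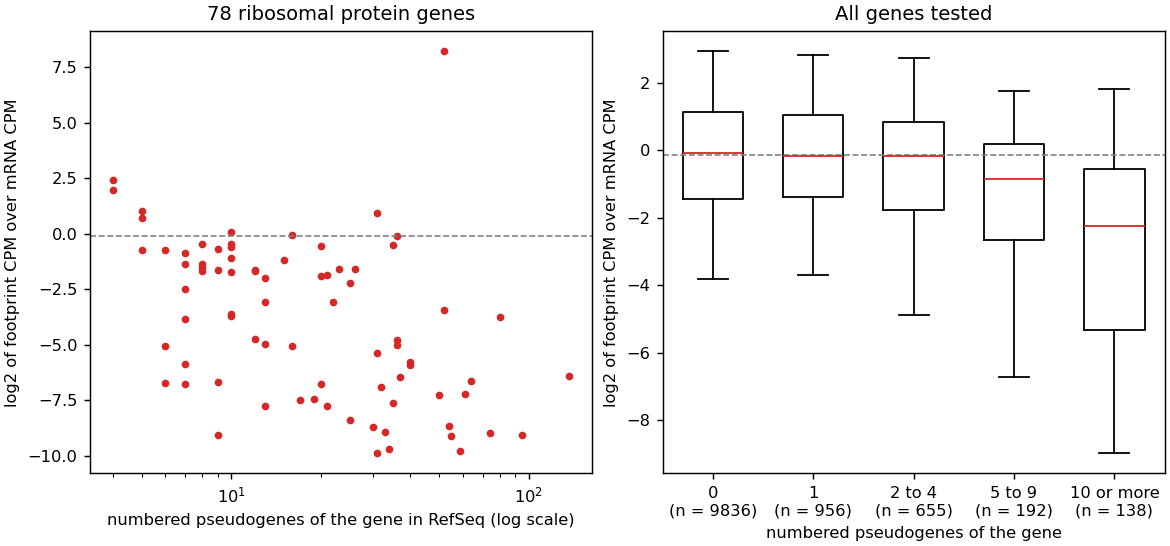
Left, efficiency (log2) of the 78 ribosomal protein genes against the number of their numbered pseudogenes on a log scale; right, efficiency of all genes tested by that number, with boxes at the quartiles, red medians and whiskers at the lowest and highest 5%. Medians drop from −0.08 with no numbered pseudogene to −2.23 with 10 or more. Dashed lines mark the median of all genes.

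The TOP start itself went with a small difference. Among 9728 tested genes with a start window, 534 (5.49%) had a C at the annotated start followed by at least 4 of C or T on the gene's strand. Their median efficiency was −0.31, against −0.10 for the other starts. In the 9550 genes left after setting aside those with numbered pseudogenes, readthrough partners, replication-dependent histones and the interval from HLA-F to KIFC1 (restricted genes below, a set chosen after seeing the data), the medians were −0.21 and −0.09. Of 62 ribosomal protein genes with a window, 42 (67.7%) had such a start. Their median was −3.71, against −4.20 for the 20 with other starts. An annotated start is a single base position, and a start that is off by a few bases would be missed.

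Other mRNAs known to begin with a TOP motif were mixed: 8 of 20 were higher and 11 lower, with a median of −1.11. EEF1A1, the target of METTL13, showed the extreme. It came next after ACTB in mRNA counts, at 9908 and 8388 CPM, but read only 26.04 and 21.91 CPM in footprints, and its efficiency was −8.57 (SE 0.273, adjusted p = 8.01e-16). It has 50 numbered pseudogenes. EEF2, the factor that moves the ribosome along by a codon, has no numbered pseudogene and, like EEF1A1, a run of 7 pyrimidines in the windows above. EEF2 read 2702 and 3237 CPM in mRNA and 3246 and 3483 CPM in footprints. Its efficiency was 0.18 (SE 0.192, adjusted p = 0.399). RACK1, a scaffold on the small subunit, was lower at −2.61, PABPC1, the poly(A)-binding protein, at −1.62, and TPT1, a growth-related protein with a strong TOP motif, at −0.97. All 3 have numbered pseudogenes. Among the 4 list members that are restricted genes, 3 were higher, none was lower and the median was 1.31.

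Initiation factors were more often higher than lower. Of 38 tested, 22 were higher and 8 were lower, with a median of 0.59. All 38 were well counted. EIF5B, the GTPase that joins the subunits, was the highest: 93.1 and 82.6 CPM in mRNA and 1373 and 1418 CPM in footprints, an efficiency of 3.99 (SE 0.213). EIF4G1, the scaffold of the cap-binding complex, read 980 and 1239 CPM in mRNA and 2384 and 2763 CPM in footprints, at 1.21 (SE 0.200). The 13 subunits of eIF3, the large complex that recruits the small ribosomal subunit, had a median of 0.73, with 9 higher and 2 lower. Their range ran from −3.50 in EIF3F, which has 3 numbered pseudogenes, to 2.73 in EIF3A, which has none. EIF1, which guards start codon choice and begins from a poor start context in its own mRNA, was lower at −3.16 and has 7 numbered pseudogenes. EIF4G2, a scaffold relative that does not bind the cap protein, was at −0.39 (SE 0.188, adjusted p = 0.0653). It passed the threshold under 9 of the alternatives.

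Aminoacyl-tRNA synthetases, which charge tRNAs with amino acids, were mostly higher in footprints. Of 20 tested, 18 were higher and none was lower, with a median of 1.29, and 11 were higher by at least 1. All 20 were well counted. With library size alone, with upper-quartile factors and in the refit with its own factors, 15 were higher and 1, WARS1, was lower. EPRS1, the joint glutamyl and prolyl enzyme, read 223 and 151 CPM in mRNA and 1720 and 1666 CPM in footprints, an efficiency of 3.18 (SE 0.224). LARS1, for leucine, was at 2.29, and TARS1, for threonine, at 2.15. WARS1, for tryptophan, was the lowest at −0.31 (SE 0.192, adjusted p = 0.150). VARS1, for valine, was the highest at 6.88, with 1.48 and 1.36 CPM in mRNA and 156 and 183 CPM in footprints. It lies in the interval from HLA-F to KIFC1 described below. All 11 synthetases among the restricted genes were higher, with a median of 1.38.

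**Figure D4:**
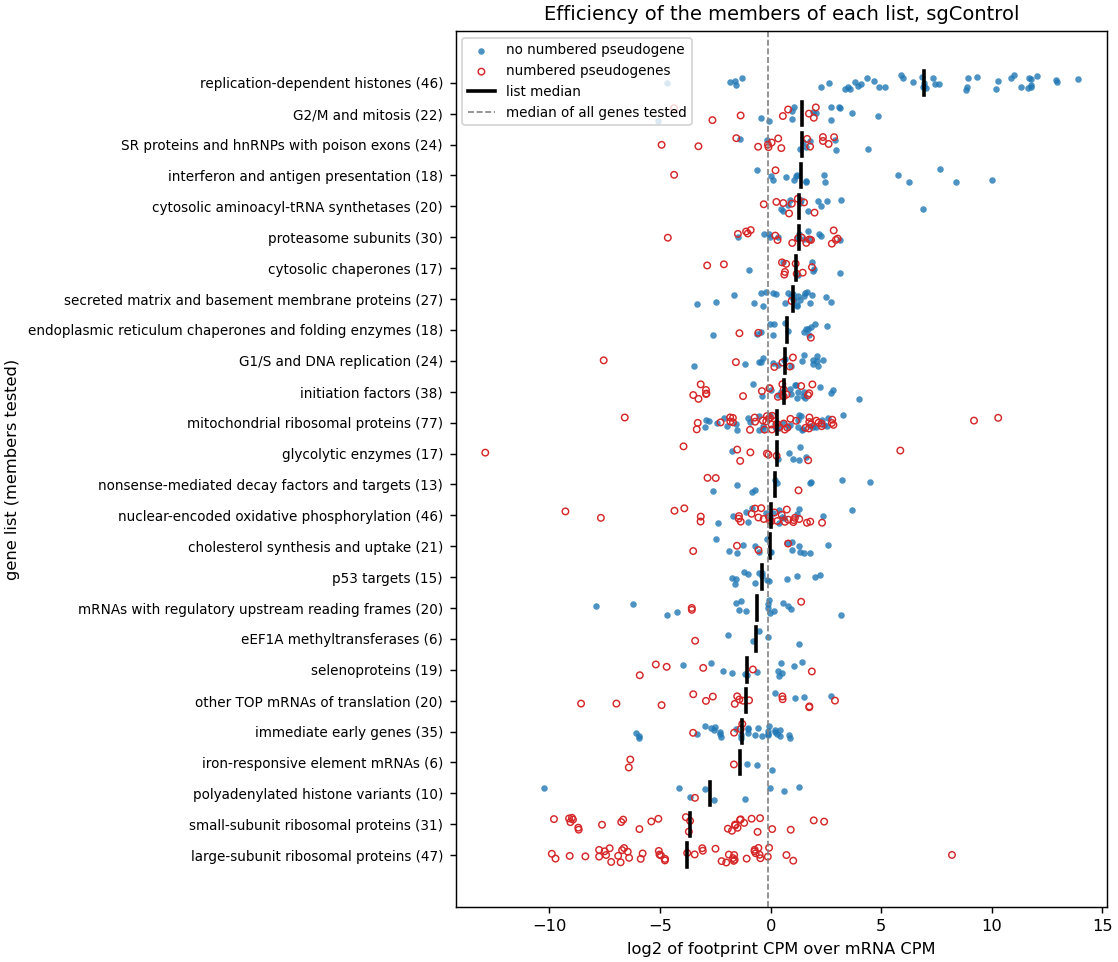
Efficiency (log2) of each tested member of 26 gene lists, sorted by the list median (black bar), with members without numbered pseudogenes as filled points and the others as open circles; the dashed line is the median of all genes tested. Ribosomal proteins sit lowest at −3.77 and −3.64 and replication-dependent histones highest at 6.96. Point heights within a list are random offsets. The eEF1A methyltransferase row also holds METTL21A.

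Upstream reading frames are short frames in the 5′ leader that take up scanning ribosomes before the main start codon. In stress, when eIF2 is phosphorylated, several of these mRNAs are instead translated more. Of 20 such mRNAs tested, 10 were lower, all by at least 1, and 5 were higher, with a median of −0.62. Of the 18 well-counted members 8 were lower and 5 higher, with a median of −0.11. Of the 17 restricted genes 8 were lower and 4 higher, with a median of −0.12, which is the median of all genes tested. Without footprint replicate 2 the number higher in the whole list was 3. SLC35A4, whose leader encodes a microprotein, read 135 and 195 CPM in mRNA and 0.930 and 0.375 CPM in footprints (7 and 2 counts), an efficiency of −7.88 (SE 0.364, adjusted p = 1.52e-13). SLC35A4 passed the filter through mRNA alone, so its ratio is no support for a direction. CEBPB, a transcription factor with a frame that sets its isoforms, was at −6.23, and MIEF1, whose leader encodes a mitoribosome assembly factor, at −4.25. None of these 3 has a numbered pseudogene.

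The main effectors of the integrated stress response differed from each other. ATF4, its central transcription factor, read 244 and 310 CPM in mRNA and 22.7 and 24.2 CPM in footprints, an efficiency of −3.56 (SE 0.223). It has 4 numbered pseudogenes. ATF5 read 49.2 and 59.2 CPM in mRNA and 1.46 and 3.00 CPM in footprints, at −4.67 (SE 0.306). DDIT3, which encodes CHOP, had overlapping levels in both assays, 22.6 and 17.1 CPM in mRNA and 19.3 and 20.4 CPM in footprints, at −0.01 (SE 0.222, adjusted p = 0.972). PPP1R15A, the phosphatase subunit that reverses eIF2 phosphorylation, was higher at 0.79 (SE 0.211, adjusted p = 0.00212). Without footprint replicate 2 it was at 0.61 with an adjusted p of 0.0656. Both polyamine enzymes on the list were lower: AMD1 at −3.56 with 4 numbered pseudogenes, and ODC1 at −1.58 with none.

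**Figure D5:**
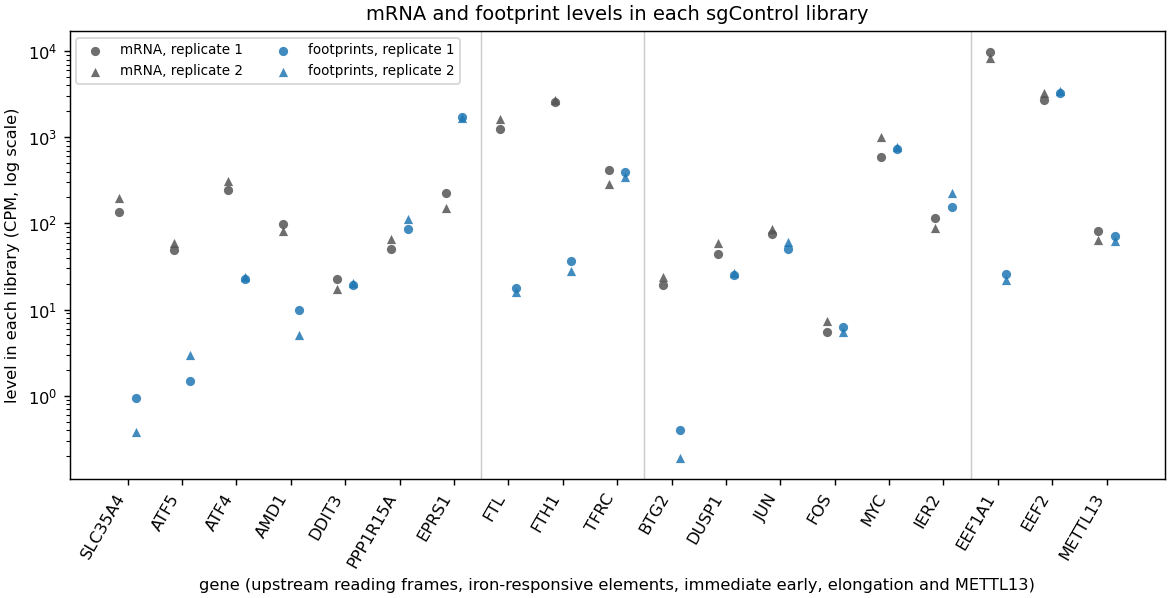
Level of 19 genes in each sgControl library, in CPM on a log scale, with mRNA in grey and footprints in blue and circles and triangles for replicates 1 and 2. The assays are far apart for SLC35A4, FTL, FTH1, BTG2 and EEF1A1, and overlap or nearly meet for DDIT3, TFRC, FOS, MYC and METTL13.

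Iron-responsive elements are hairpins bound by iron regulatory proteins. In the 5′ leader they hold back translation when iron is low, and in the 3′ region of TFRC they protect the mRNA. Of 6 genes tested 5 were lower and none was higher. FTH1, the ferritin heavy chain, read 2556 and 2706 CPM in mRNA and 36.3 and 28.3 CPM in footprints, an efficiency of −6.34 (SE 0.248). FTL, the light chain, was close to it at −6.41 (SE 0.258). They have 27 and 20 numbered pseudogenes. SLC11A2, an iron transporter, and EPAS1, a hypoxia-inducible factor, have no numbered pseudogene and were lower at −1.09 and −0.59. TFRC, the transferrin receptor, overlapped in the assays at 422 and 289 CPM in mRNA and 394 and 346 CPM in footprints, at 0.06 (SE 0.208, adjusted p = 0.815).

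Selenoproteins read a UGA codon as selenocysteine, which slows the ribosome at that codon. Of 19 tested, 12 were lower and 4 higher, with a median of −1.05. Of the 13 restricted genes 7 were lower and 3 higher, with a median of −0.60. GPX1, the cytosolic glutathione peroxidase, read 216 and 223 CPM in mRNA and 3.99 and 3.18 CPM in footprints, has 2 numbered pseudogenes and had an efficiency of −5.92 (SE 0.261). GPX4, the peroxidase that protects membrane lipids, was at −1.74. TXNRD1, thioredoxin reductase, whose selenocysteine is next to the last residue, was higher at 0.54 (SE 0.202, adjusted p = 0.0213), a call lost under 5 of the alternatives. SELENOK was the highest at 1.87. Without mRNA replicate 1 the number higher was 7. PEG10, which needs a ribosomal frameshift for its long product, was lower at −0.94 (SE 0.196).

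Immediate early genes are transcribed within minutes of serum addition, and the cells were lysed after 2 h in serum. Of 35 tested, 23 were lower and 3 higher, with a median of −1.28. By at least 1, 21 were lower and none was higher. Of the 30 well-counted members 18 were lower and 3 higher. Only 4 of the 35 have numbered pseudogenes, and among the 30 that are restricted genes 18 were lower. BTG2, an antiproliferative cofactor of mRNA decay, read 19.5 and 23.9 CPM in mRNA and 0.399 and 0.187 CPM in footprints (3 and 1 counts), an efficiency of −6.09 (SE 0.425). SRF, the serum response factor that drives many of these genes, read 131 and 190 CPM in mRNA and 2.26 and 3.00 CPM in footprints, at −5.95 (SE 0.298). ZFP36, which promotes decay of AU-rich mRNAs, was at −5.94, with 3 footprints in each library. BTG2 and ZFP36 passed the filter through mRNA alone, so their ratios are no support for a direction.

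FOS, a subunit of AP-1, read 5.48 and 7.31 CPM in mRNA and 6.24 and 5.43 CPM in footprints, at −0.11 (SE 0.284, adjusted p = 0.727). JUN, its partner, was at −0.55 (SE 0.202, adjusted p = 0.0178), and leaving out either footprint library gave adjusted p of 0.242 and 0.0522. EGR1, a zinc finger factor, was lower at −2.58, and the MAP kinase phosphatases DUSP6 and DUSP1 at −2.97 and −1.01. MYC, the growth regulator, read 598 and 996 CPM in mRNA and 731 and 765 CPM in footprints. Its efficiency was −0.09 (SE 0.219, adjusted p = 0.713) and −0.42 (adjusted p = 0.0282) without mRNA replicate 1. IER2 was the highest at 0.89 (SE 0.216), with an adjusted p of 0.0634 without footprint replicate 2. Without that library none of the list was higher.

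Replication-dependent histone mRNAs end in a stem-loop in place of a poly(A) tail, and the mRNA libraries were poly(A)-selected. The part of that selection in the ratios was not tested. Of 46 tested, 41 were higher in footprints and 4 lower, with a median of 6.96. Of the 46, 15 had under 10 counts in both mRNA libraries and passed the filter through footprints alone, so the whole-list count is no support for a direction. Of the 23 well-counted members, 3 of which passed in the same way, 21 were higher and 2 lower, with a median of 4.90. The 61 such genes in the table took 0.029% and 0.0293% of the mRNA counts and 0.896% and 0.819% of the footprint counts. H2BC7, a core H2B gene, read 0.321 and 0.525 CPM in mRNA and 229 and 165 CPM in footprints, an efficiency of 8.92 (SE 0.325). H1-2, a linker histone, read 24.6 and 22.6 CPM in mRNA and 411 and 399 CPM in footprints, at 4.10 (SE 0.214). H4C6 had 2 mRNA counts against 7519 footprints, a ratio of 18400-fold from the pooled counts. Its exact 95% interval, from 5100 to 152000, is for counting error only. H2BC7 and H4C6 passed the filter through footprints alone, so their ratios are no support for a direction. All 4 H1 and all 7 H3 genes tested were higher. That is no support for a direction either, since genes such as H1-4, with 4 and 1 mRNA counts, are among them. Without mRNA replicate 2 or without footprint replicate 1 the number lower was 2.

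The 4 exceptions among these histones were H2BC12, H2BC21, H2AC18 and H4C12, named here after their values were seen. H2BC12 read 120 and 125 CPM in mRNA and 3.986 and 5.804 CPM in footprints, an efficiency of −4.67 (SE 0.258). H2BC21 read 15.1 and 18.0 CPM in mRNA and 7.04 and 3.93 CPM in footprints. H2AC18 and H4C12 had at most 3 footprints in a library and passed the filter through mRNA alone, so their calls are no support for a direction. Histone variants made outside S phase from polyadenylated mRNAs ran the other way from the replication-dependent list: 7 of 10 were lower and 2 higher, with a median of −2.76. Of the 9 well-counted variants 6 were lower and 2 higher, with a median of −2.57. H3-3A, a gene for the variant H3.3, read 373 and 397 CPM in mRNA and had 3 and 1 footprints in all. It passed the filter through mRNA alone, so its ratio is no support for a direction. H3-3B, which encodes the same protein, was at −2.57, and H2AZ1, for the variant H2A.Z, at −2.94. H1-10 was the highest at 1.28. Without footprint replicate 2 the number higher was 1. Copies of nearly the same sequence are frequent among histone genes, and how reads were split between them is not given in the sources used here.

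Antigen presentation genes of chromosome 6 stood apart through their mRNA counts. From HLA-F to KIFC1 (chr6:29723434-33409896, GRCh38.p14) the table lists 86 genes, and these bounds were set after seeing their mRNA values. Of the 42 tested, 22 had under 10 counts in both mRNA libraries and passed the filter through footprints alone, so no count over the 42 is given. Of the 13 well-counted genes, 1 of which also passed through footprints alone, 11 were higher and none lower, with a median of 3.78, a description of an interval chosen for low mRNA. The interval took 0.00701% and 0.0058% of mRNA counts and 0.127% and 0.13% of footprint counts. HLA-E, a class I chain that presents peptides, read 0.222 and 0.350 CPM in mRNA and 92.7 and 94.4 CPM in footprints, an efficiency of 8.40 (SE 0.310). TAPBP, which loads peptides, read 0.049 and 0.219 CPM against 22.7 and 24.9 CPM. Both had under 10 counts in each mRNA library and so passed the filter through footprints alone. Their ratios are no support for a direction. Low mRNA was not limited to antigen presentation: 68 of 86 were below 1 CPM in mRNA, and 19 of those had at least 10 CPM in footprints. Over all other table genes outside the interval and the histones, 3137 of 14521 were below 1 CPM in mRNA, and 124 of those had at least 10 CPM in footprints. Since the bounds were set on these mRNA values, this contrast is a description only. MRPS18B, a mitoribosomal protein in the interval that passed the filter through footprints alone, had 1 mRNA count and 366 footprints. How reads were assigned there is not given in the sources used here.

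Outside the interval, interferon and antigen presentation genes were nearer to the rest. The 14 well-counted genes of the whole list had 9 higher and 2 lower, with a median of 1.09, and its 10 restricted genes had 7 higher and 1 lower, with the same median to 2 decimals. Over all 18 tested, 2 were lower, and leaving out either footprint library gave 1 lower. B2M, the light chain of class I molecules, encoded on chromosome 15, read 102 and 47.2 CPM in mRNA and 169 and 138 CPM in footprints, an efficiency of 1.04 (SE 0.262). IFITM3, which blocks viral entry, was the lowest at −4.36 and has 9 numbered pseudogenes.

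Among the 15 largest ratios that met the naming rule (adjusted p below 0.05, at least 10 counts in each library, a mean of at least 5 CPM, no overlap), 8 were replication-dependent histones and 4 lay in readthrough loci, where the annotation joins neighbouring genes. H2BC7, SCHIP1, ANKHD1-EIF4EBP3 and NSF passed the filter through footprints alone, so their ratios are no support for a direction. TPTEP2-CSNK1E had 48 and 19 mRNA counts and 3240 and 2936 footprints, an efficiency of 8.87. CSNK1E, a casein kinase of the circadian clock that lies within it, had 560 and 104 mRNA counts and 3235 and 2933 footprints. Of 66 readthrough and partner pairs with at least 50 footprints in each gene and library, 19 had footprint counts within 5% of each other in both libraries, and in none of those 19 were mRNA counts within 5%. Of 250 tested genes of such loci, 38 had under 10 counts in both mRNA libraries and so passed the filter through footprints alone. The 163 well-counted ones, 8 of which also passed through footprints alone, had a median of 0.87, with 86 higher and 49 lower, against the median of 0.10 for all well-counted genes. GAGE cancer-testis antigens showed a like pattern, since 7 of 12 GAGE genes shared the same footprint counts, 951 and 463. The other 3 of the 15 were TUBB2B, a beta-tubulin, NSF, the ATPase of vesicle fusion, and VARS1.

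The 15 lowest ratios under the same rule were all genes with numbered pseudogenes, 2 to 95 of them. Beside EEF1A1 and 10 ribosomal proteins they were UBE2S, PPIA, YBX1 and PPP1R14B. PPIA, the cyclophilin that isomerises prolines, read 2861 and 2707 CPM in mRNA and 10.76 and 11.98 CPM in footprints, an efficiency of −7.94 (SE 0.263), and has 87. YBX1, a cold shock protein that packages mRNA, was at −7.59 with 10. UBE2S, which builds ubiquitin chains for the anaphase-promoting complex, read 585 and 632 CPM in mRNA and 1.86 and 2.06 CPM in footprints and has 2.

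Low ratios were also found in genes without numbered pseudogenes. Pseudogenes under symbols of another form were not counted, so restricted genes may have some. Among restricted genes, by the same rule, HM13, the signal peptide peptidase, was lowest. It read 344 and 396 CPM in mRNA and 1.46 and 4.49 CPM in footprints, an efficiency of −7.05 (SE 0.336). Next came SRF at −5.95, FAM89B at −5.80, MAP1LC3B, the autophagosome marker LC3B, at −5.63, and TMA7 at −5.63. GNB1, a G protein beta subunit, read 445 and 564 CPM in mRNA and 11.3 and 12.2 CPM in footprints, at −5.43 (SE 0.247). PPDPF and BLCAP were at −5.48 and −5.46. MYADM, NCS1, OPA3, CLN6, TEX261, DUSP7 and TMEM184B followed, from −5.40 to −5.15.

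The highest restricted genes held several with near-identical relatives. HMGN5, a nucleosome-binding protein, led with 7.90 and 6.87 CPM in mRNA and 705 and 716 CPM in footprints, an efficiency of 6.58 (SE 0.244). NBPF10, NBPF19 and NBPF20 belong to 1 repeated family, GAGE12J, GAGE12C and GAGE13 to another, and PABPC3, GLUD2 and UQCRHL are known retrocopies of PABPC1, GLUD1 and UQCRH. GAGE12J and GLUD2 passed the filter through footprints alone, so their ratios are no support for a direction. YTHDC1, a nuclear reader of methylated adenosine, read 2.35 and 2.41 CPM in mRNA and 145 and 151 CPM in footprints, at 5.96 (SE 0.244). ESF1, a nucleolar protein of ribosome assembly, was at 5.15 (SE 0.230). SSBP1, which coats single-stranded mitochondrial DNA, was at 5.55, with mRNA levels of 12.2 and 4.16 CPM that differed between replicates, and CENPE, a kinetochore motor, at 4.85.

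The medians of the proteasome and cytosolic chaperone lists lay above the median of all genes. Of 30 proteasome genes tested, 18 were higher, 6 lower and 6 neither, with a median of 1.27. By part of the complex, the median was 1.76 for 7 alpha and 1.35 for 6 beta subunits of the core, 0.59 for 6 ATPases of the cap and 2.18 for 11 other cap subunits. PSMD6, a cap subunit, was the highest at 3.14, and PSMC1, an ATPase with 13 numbered pseudogenes, the lowest at −4.65. All 8 subunits of the CCT chaperonin, which folds actin and tubulin, were higher, from 0.52 to 1.87. The cytosolic chaperones as a whole had 14 of 17 higher and 3 lower, and a median of 1.14. HSP90AA1 read 1347 and 883 CPM in mRNA and 4091 and 4718 CPM in footprints, an efficiency of 1.98 (SE 0.220). HSPA8, the constitutive HSP70 with 20 numbered pseudogenes, was lower at −2.11 (SE 0.197).

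Mitochondrial and glycolytic lists were spread to both sides. Nuclear-encoded oxidative phosphorylation genes had 17 higher and 17 lower of 46, and a median of 0.00. Of the 44 well-counted ones 17 were higher and 15 lower, with a median of 0.07. Complex I genes were higher in 8 of 16 and lower in 2. Succinate dehydrogenase genes were lower in 3 of 4. SDHC read 209 and 184 CPM in mRNA and had 3 and 1 footprints in all, and SDHD read 130 and 127 CPM in mRNA and had 5 and 3 footprints. They have 5 and 7 numbered pseudogenes. Both passed the filter through mRNA alone, so their ratios and the count of 3 of 4 are no support for a direction. ATP5F1B, the catalytic subunit of ATP synthase, was at 0.50 (SE 0.197, adjusted p = 0.0260), a call lost under 5 of the alternatives. Mitochondrial ribosomal proteins had 36 higher and 23 lower of 77, with a median of 0.29, beside −3.67 for their cytosolic counterparts. Of the 77, 2 had under 10 counts in both mRNA libraries and passed the filter through footprints alone. The 72 well-counted ones had 33 higher and 22 lower, with a median of 0.245. Well-counted cytosolic genes had medians of −3.43 (large subunit) and −1.68 (small subunit). No numbered pseudogene is listed for 36 of the 77 mitochondrial genes. Glycolytic enzymes had 7 higher and 6 lower of 17, and the 16 well-counted ones had 7 higher and 5 lower. The 7 restricted genes of the list had 5 higher and 1 lower, with a median of 1.00. GAPDH, with 65 pseudogenes, was at −3.94, ENO1 at −1.37, LDHA at −1.51 and PKM at −0.10 (SE 0.188, adjusted p = 0.652). ALDOA, the muscle-type aldolase, was the highest at 5.87. PGAM1, a mutase, had 41326 mRNA counts and 1 footprint, 8430-fold lower in footprints from the pooled counts. Its exact 95% interval, from 1510 to 333000, is for counting error only. PGAM1 has 13 numbered pseudogenes and passed the filter through mRNA alone, so its ratio is no support for a direction.

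Matrix and basement membrane genes were higher in 17 of 27 and lower in 5, with a median of 1.02, and 1 has a numbered pseudogene. Without footprint replicate 2 the number lower was 3. Of 7 laminin chains 6 were higher and 1 lower, and 7 of 9 collagens were higher and none lower. LAMB3, a chain of laminin-332 that anchors epithelia, read 356 and 326 CPM in mRNA and 844 and 899 CPM in footprints, an efficiency of 1.35 (SE 0.192). THBS1, thrombospondin, read 846 and 966 CPM in mRNA and 2104 and 2005 CPM in footprints and was higher. TIMP1, a protease inhibitor, was the lowest at −3.31. Chaperones of the endoplasmic reticulum had 10 of 18 higher and 4 lower, or 2 lower without either footprint library. HSP90B1 was the highest at 2.53, HERPUD1 the lowest at −2.59, and HSPA5, the chaperone BiP, was at −0.55 (SE 0.189, adjusted p = 0.0116), with adjusted p of 0.164 and 0.0896 when either footprint library was left out.

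Membrane carriers were lower as classes. Genes with SLC symbols, the solute carriers, had a median of −1.02 over 208 genes, with 39 higher and 124 lower. Genes with TMEM symbols, a loose class of membrane proteins, had a median of −1.48 over 144 genes, with 22 higher and 96 lower. Among restricted genes the medians were −0.95 over 174 and −1.15 over 129. ZNF zinc finger genes were nearer to the rest at −0.29 over 349. Cholesterol synthesis and uptake genes were even at 9 higher and 9 lower of 21, and the lowest was HSD17B7 at −3.50.

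Genes of splicing and cell division tended to lie above the median gene. SR proteins, hnRNPs and their kinases, which control themselves through poison exons, were higher in 14 of 24 and lower in 5, with a median of 1.40. CLK1, a kinase of SR proteins whose mRNA is largely kept in the nucleus with introns, read 5.78 and 3.33 CPM in mRNA and 98.3 and 96.2 CPM in footprints, an efficiency of 4.39 (SE 0.258). HNRNPA1, with 75 numbered pseudogenes, was the lowest at −4.93. Nonsense-mediated decay genes were split at 5 higher and 6 lower of 13, from −2.85 in GADD45A, a known target, to 4.51 in UPF3B, which links decay factors to exon junctions. G2/M genes were higher in 16 of 22 and lower in 4, with a median of 1.40. CENPE was the highest, and BIRC5, the survivin of the chromosomal passenger complex, the lowest, with 203 and 188 CPM in mRNA and 5.18 and 6.55 CPM in footprints, at −5.07 (SE 0.248). G1/S genes were higher in 14 of 24 and lower in 6. All 6 subunits of the MCM helicase were higher, from 0.61 to 2.10, and RRM1, the large subunit of ribonucleotide reductase, was the highest of the list at 2.39. Targets of p53 had 4 higher and 6 lower of 15 and a median of −0.40.

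METTL13, which methylates eEF1A and is the gene targeted in the other cells of the series, lay near the median in the control. It read 82.3 and 64.9 CPM in mRNA and 71.6 and 63.3 CPM in footprints, and the libraries of the assays overlapped. Its efficiency was −0.13 (SE 0.202, adjusted p = 0.582). Of the 5 eEF1A methyltransferases tested, METTL13 among them, 1 was higher and 2 were lower, from −1.94 in EEF1AKMT3 to 1.27 in EEF1AKMT1. METTL21A, which also stood on that list but methylates HSP70 chaperones, was at −3.41. With 7 and 4 footprints it passed the filter through mRNA alone, so its ratio is no support for a direction.

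Some genes had many counts in a single assay and none in the other, and so are not members. CKS1B, a partner of the SCF ubiquitin ligase, read 262 and 265 CPM in mRNA and had 0 footprints, at least 1130-fold lower against the limit of 3 counts over both footprint libraries. MANBAL, ISCA1, LSM12 and BRD3OS followed, at least 474-, 349-, 244- and 220-fold lower. The 5 genes with the most footprints and no mRNA count were all readthrough symbols, led by NEDD8-MDP1 with 693 and 859 CPM. FMC1-LUC7L2, ABCF2-H2BK1, TGIF2-RAB5IF and CFAP298-TCP10L were the others. ABCF2 itself had exactly the footprint counts of ABCF2-H2BK1, 2534 and 1865, and 1542 and 761 mRNA counts.

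Across genes, efficiency went down slightly with mRNA level and with base composition. Spearman's rho was −0.227 between the mRNA level in replicate 1 and the efficiency from the replicate 2 libraries over 9846 genes, which share no library, and −0.199 over 7937 restricted genes. The mRNA level in replicate 1 and the footprint level in replicate 2 had a rho of 0.659. By quartile class of GC content in the promoter and start window (250 bases before to 50 after the annotated start, RefSeq), restricted genes had median efficiencies of 0.27, 0.06, −0.13 and −0.54 from the lowest class (up to 59.0% GC) to the highest (above 72.3%). Genes with an ATG in the first 50 bases of the annotated transcript numbered 3148 of 9728 (32.4%), and their median was −0.09 against −0.11 for the rest. By chromosome, the medians of restricted genes ran from −0.77 on chromosome 22, −0.69 on chromosome 9 and −0.59 on chromosome 19 to 0.42 on chromosome 4 and 0.43 on chromosome 5. These are descriptions across genes, which are not independent replicates.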

How the data were processed

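Members and gene lists were chosen with earlier results of these data known. The authors deposited raw counts per gene symbol. The submitters' processing notes name Bowtie 1.2.2, HISAT2 2.0.4, cutadapt 1.18, featureCounts, UMI-tools and the hg38 build. Which tool served which assay, the counted region, strand, annotation, molecular identifiers and multiply aligned reads are not given in the sources used here. Per the labels' protocols, mRNA libraries were stranded, poly(A)-selected and read as paired ends of 150 bp.

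Counts of the 4 control libraries were fitted with edgeR 4.0.16 (R 4.3.3): TMM factors, filterByExpr by assay, quasi-likelihood F test of the assay term, Benjamini-Hochberg over 11777 genes, threshold 0.05. The common biological coefficient of variation was 0.152. Standard errors are the log2 ratio over the square root of F. In simulated counts of 11667 genes, 100 changed by 2-fold, 100 by 4-fold and the rest did not change. The fit recovered 81% of 2-fold and 99% of 4-fold changes with 12 false calls. In the data 76.1% of genes were called, so these rates do not carry over to them.

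Named genes were, per direction, the 15 largest log2 ratios among genes called with at least 10 counts in each library, a mean level of 5 CPM or more and assays that did not overlap; list examples with each list's highest and lowest member; METTL13; and the 5 genes with the most counts per assay and of those seen in 1 assay. A few genes that this rule takes are not reported here. Lists have no set test: counts stand beside those over all genes. All 14668 symbols matched RefSeq (GRCh38.p14), the source of coordinates, pseudogene symbols and start windows. Protein length, signal peptides and coding share were not analysed here. Alternatives were other scalings, DESeq2 1.42.0, limma voom 3.58.1, other filters, a replicate block, leaving out each library, and sets without numbered pseudogenes or of restricted genes.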

Additional observations from a re-analysis of the deposited data

How the results depend on the processing

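The count of called genes stayed within 1.5 times the main 8968 under all alternatives run, from 7192 in restricted genes, a set added after seeing the data, to 9331 with the replicate block. Leaving out each library in turn gave 7723 to 9052. There the lone library left in an arm is assumed to vary like the pair in the other assay. The share of calls that were higher was 46.8%, and 39.2%, 42.2% and 49.0% with library size alone, upper-quartile factors and DESeq2's size factors. Replicate numbers are shared between assays in the labels without a stated pairing. The replicate block gave 9331 calls, and across genes the replicate differences in mRNA and footprints had a correlation of 0.108, which with 2 pairs does not show pairing. Of 171 named genes tested, 158 were called and 151 of those kept call and direction in every setting that tested them. No named gene reversed with a call. The correlation of mRNA level with efficiency was −0.227, and −0.269 with the libraries swapped; the cause was not tested. Without genes with numbered pseudogenes fewer list members were tested: 13 of 18 initiation factors were then higher and 2 lower, 8 and 1 of 13 proteasome subunits, 6 and 5 of 16 oxidative phosphorylation genes, 17 and 12 of 36 mitochondrial ribosomal proteins, 6 and 1 of 7 cytosolic chaperones, and 7 and 1 of 9 SR proteins and hnRNPs. No ribosomal protein was left there or among restricted genes, so that list has no value under these settings. Depth limits low values: members with 1 footprint in all numbered 642, and with 1 mRNA count 180.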
